A study of Mus musculus with 8 samples.

Results

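The genes described here make, bind, degrade and sense retinoic acid, the hormone-like derivative of vitamin A. There are 9 of them among the 36536 genes counted: the degrading enzyme *Cyp26b1*, the synthetic enzymes *Aldh1a1*, *Aldh1a2* and *Aldh1a3*, the cellular binding proteins *Crabp1* and *Crabp2*, and the receptors *Rara*, *Rarb* and *Rarg*. They were taken by symbol from the NCBIM37 (mm9) annotation of the counted Ensembl genes, and all 9 were found. RNA-seq had been performed on freshly sorted, untreated cells from the cochleas of neonatal mice carrying the bacterial artificial chromosome transgene Tg(Lfng-EGFP)HM340Gsat on a B6;FVB background. In these mice the regulatory sequence of *Lfng*, a Notch pathway gene of supporting cells, drives GFP. Cells from postnatal day 1 (P1) and day 6 (P6) were each sorted into a fraction with the brightest GFP (GFP+) and a fraction without it (GFP-), and 2 replicate libraries were made for each of the 4 groups. All groups carry the transgene, and there is no treated or mutant group. GFP marks Deiters' cells, outer pillar cells, border cells and inner phalangeal cells but not inner pillar cells, so the GFP+ cells are a mixture of supporting cell types and the GFP- cells are a mixture of the many cell types without GFP in the dissected tissue. Cells with weak GFP were left out of both fractions. The lateral wall and stria vascularis were separated from the sensory region at P1 but only partly removed at P6, so age and dissection cannot be told apart in the comparisons of P6 with P1. In bulk samples of this kind, fewer cells of a type and less RNA per cell cannot be told apart.

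Retinol enters cells, is oxidized to retinaldehyde by retinol dehydrogenases, and is then oxidized irreversibly to retinoic acid by the ALDH1A enzymes. Retinoic acid binds nuclear receptors of the RAR family, which sit on DNA as partners of RXR receptors and switch target genes between repression and activation, while CYP26 enzymes hydroxylate retinoic acid and so remove it. In the developing ear the hormone takes part in patterning the otic epithelium and in hair cell differentiation, and both a lack and an excess of it cause malformations.

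*Rarb* is a classical target of its own ligand, through a response element close to its start. To show that element beside the values of the gene, and to show the same window for *Cyp26b1*, the gene with the highest level in this set, the 300 bases from 250 before to 50 after the annotated start are printed from RefSeq (build GRCm38.p6, a later build than that of the counts). Capitals mark a direct repeat of half-sites, each of them AGGTCA or AGTTCA or GGGTCA or GGTTCA, with 5 bases between them.
Rarb, chr14:16575427-16575726, minus strand: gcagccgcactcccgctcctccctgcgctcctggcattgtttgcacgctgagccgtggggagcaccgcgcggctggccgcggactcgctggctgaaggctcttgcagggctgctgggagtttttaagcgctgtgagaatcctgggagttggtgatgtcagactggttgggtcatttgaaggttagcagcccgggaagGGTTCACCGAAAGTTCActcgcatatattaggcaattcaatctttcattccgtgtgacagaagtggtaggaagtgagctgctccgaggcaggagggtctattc
Cyp26b1, chr6:84593761-84594060, minus strand: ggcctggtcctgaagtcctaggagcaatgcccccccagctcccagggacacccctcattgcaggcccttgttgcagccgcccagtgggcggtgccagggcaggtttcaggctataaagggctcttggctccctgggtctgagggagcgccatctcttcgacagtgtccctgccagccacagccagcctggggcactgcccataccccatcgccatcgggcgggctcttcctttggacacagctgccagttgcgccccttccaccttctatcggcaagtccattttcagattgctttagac
In *Rarb* the repeat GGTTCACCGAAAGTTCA lies from 53 to 37 bases before the start, on the strand of the gene. The *Cyp26b1* window holds none of the half-sites on either strand. The table has 12 windows for 7 of the 9 genes, and none for *Aldh1a3* and *Crabp2*. Searched on both strands, a repeat with 5 bases between the half-sites stood in 1 of these 12 windows and in 32 of all 32851 windows (0.0974%). Repeats with 2 or 1 bases between them stood in none of the 12 windows, and in 0.268% and 0.222% of all windows. Of the 34 other pathway genes that have a window, *Cyp26a1*, a further retinoic acid hydroxylase, held the repeat with 5 bases between half-sites. These matches describe letters only.

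The libraries held 17769024 to 67695039 counts on genes, and levels are given as CPM, the count of a gene relative to all counts on genes in its library on a scale common to all libraries, so that 1 count was worth 0.0148 to 0.0563 CPM. The supporting cell list (7 markers) was higher in the GFP+ libraries for 7 of 7 genes at both ages, with summed levels of 4763 to 7519 CPM against 187 to 262 CPM in GFP- libraries. Hair cell markers summed to 173 to 310.0 CPM in GFP+ and 29.7 to 54.6 CPM in GFP- libraries, and 4 of 6 at P1 and 5 of 6 at P6 were higher in both GFP+ libraries. The GFP+ libraries were thus not free of RNA of hair cell markers. Whether it came from hair cells or from the supporting cells was not tested. P6 GFP+ replicate 2 stood apart from replicate 1 in markers of other tissues. Otic mesenchyme and fibrocyte markers (6 of 6 higher) summed to 2126 against 581 CPM, endothelial markers (4 of 4 higher) to 169 against 40.2 CPM, and stria marginal cell markers (3 of 3 higher) to 57.6 against 7.26 CPM. Replicate 2 was also higher in Schwann cell (4 of 5), cartilage and bone (6 of 6) and melanocyte markers (4 of 4). The same held for macrophage (4 of 4), red blood cell (3 of 3) and neuronal markers (4 of 5). Hair cell markers were higher in it for 3 of 6 genes and supporting cell markers for 1 of 7. Its Schwann cell, endothelial and stria sums (2343, 169 and 57.6 CPM) were above those of both P6 GFP- libraries (at most 1618, 112 and 16.4 CPM). P1 GFP- replicate 2 exceeded replicate 1 in neuronal markers (4 of 5 higher, summed level 571 against 251 CPM) and in stria marginal cell markers (3 of 3 higher, 20.5 against 7.86 CPM). Both P6 GFP+ libraries also stood above both P1 GFP+ libraries in markers of several other tissues. This held for 6 of 6 mesenchyme and fibrocyte, 5 of 5 Schwann cell and 4 of 4 melanocyte genes. The same was seen for 4 of 4 macrophage and 4 of 4 endothelial genes. For cartilage and bone it was 4 of 6, for neurons 3 of 5 with 1 the other way, and for red blood cells 2 of 3. Stria marginal cell genes did so for 0 of 3. The mesenchyme and fibrocyte sum was at most 177 CPM at P1 and at least 581 CPM at P6, and the Schwann cell sum at most 417 CPM and at least 1104 CPM. Of the Schwann cell sums, *Sox10* held 275 and 286 CPM in P1 GFP+ and 340 and 306 CPM in P6 GFP+ libraries. *Sox10* was higher in GFP+ than in GFP- libraries at both ages (95.9 and 148, then 87.6 and 95.1 CPM in GFP-). At P1, 4 of the 5 Schwann cell markers were higher in both GFP- libraries instead. Supporting cell markers were lower in both P6 than in both P1 GFP+ libraries for 6 of 7 genes. These shifts go with every change with age in GFP+ cells that follows, and their part in them was not tested. Across all 11 marker lists, *Tyrp1* of melanocytes was the only gene at 0 in a library. The labels do not say whether replicates came from separate animals, so the p-values measure only the spread between these libraries, which may be technical.

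*Cyp26b1* (ENSMUSG00000063415, chromosome 6, 84521938 to 84543740, minus strand), whose protein inactivates retinoic acid, was by far the most abundant of the 9 in GFP+ cells and fell with age there. It measured 1829.6 and 2079 CPM in the P1 GFP+ libraries and 22.0 and 51.0 CPM in the P1 GFP- libraries. At P6 it measured 321 and 337 CPM in GFP+ and 34.6 and 20.0 CPM in GFP- libraries. Every GFP+ library was above every GFP- library, both P1 GFP+ libraries were above both P6 GFP+ libraries, and the GFP- groups of the 2 ages overlapped. The log2 fold change of GFP+ against GFP- cells was 5.84 at P1 (SE 0.44, p-adj = 0.000148 by edgeR) and 3.58 at P6 (SE 0.32, p-adj = 0.00169 by edgeR). Between P1 and P6 it fell by 2.48 on the log2 scale in GFP+ cells (SE 0.17, p-adj = 0.00273 by edgeR). In GFP- cells the change was -0.22 (SE 0.41, p-adj = 0.737 by edgeR). The smaller enrichment at P6, a difference between the 2 log2 ratios of -2.28 (SE 0.56), missed the threshold of 0.05 in the interaction test, which asks whether the enrichment changed with age (p-adj = 0.0524 by edgeR). It passed with the DESeq2 test at -2.25 (p-adj = 0.000689). It also passed without P1 GFP- replicate 2 (-2.92, p-adj = 0.0193 by edgeR), the GFP- library with the highest level. Over the 13 alternatives it ranged from -2.92 to -1.76 and passed in 5, and it did not pass, among others, without P1 GFP- replicate 1 (-1.76, p-adj = 0.0702 by edgeR) or P6 GFP- replicate 1 (-1.79, p-adj = 0.187 by edgeR). The log2 fold change at P1 was 6.57 without P1 GFP- replicate 2 and 5.34 without replicate 1, both past the test. Without P1 GFP- replicate 2 the change with age in GFP- cells turned to 0.49. Without P1 GFP- replicate 1 the GFP- change was -0.72. *Lfng* and the other supporting cell markers were also higher in P1 GFP- replicate 2 than in replicate 1 (7 of 7, summed level 262 against 187 CPM), and their part in the *Cyp26b1* value was not tested.

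**Figure D1:**
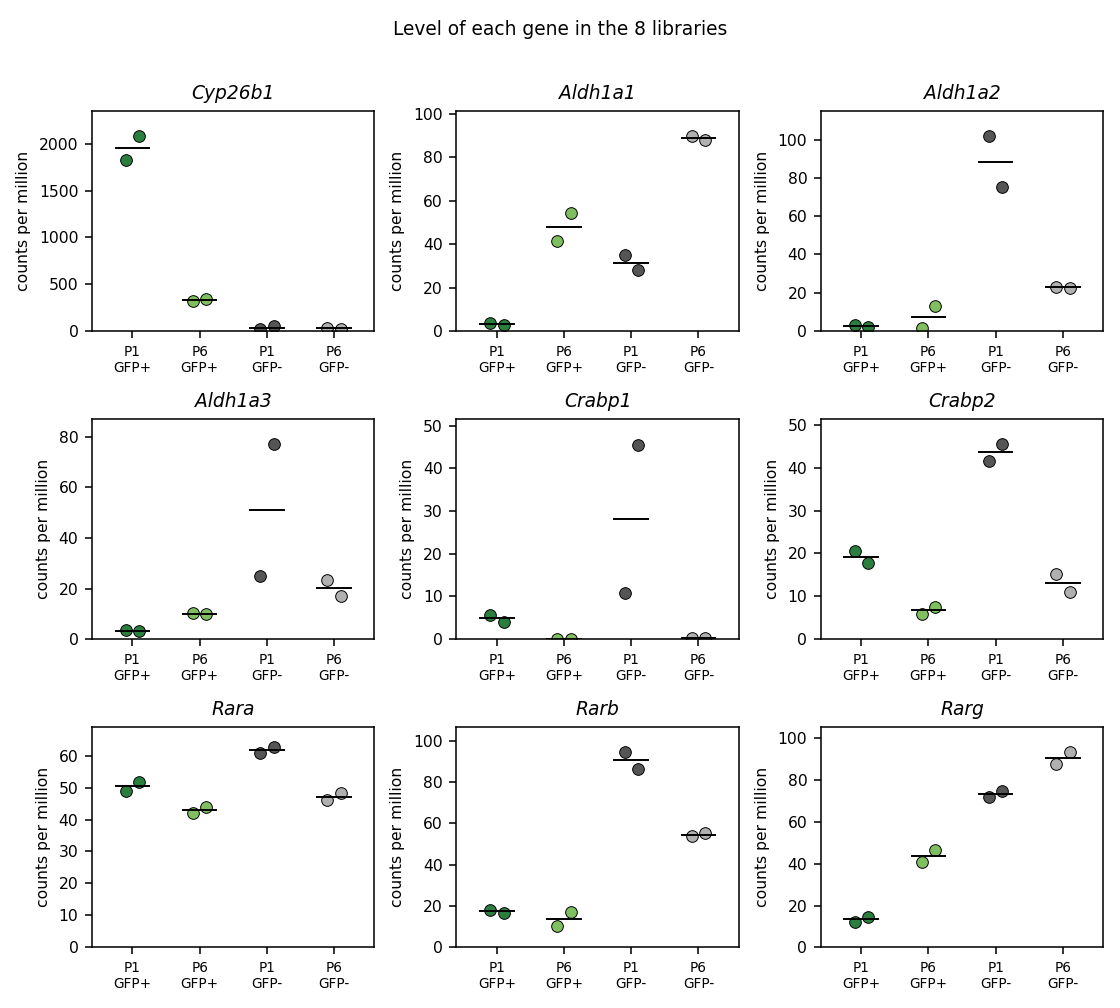
CPM (y axes, linear, each from 0 and with its own range) of the 9 retinoic acid genes in each of the 8 libraries, with 1 point per replicate library and a line at the mean of each group (n = 2). *Cyp26b1* is the only panel in which both GFP+ groups lie above both GFP- groups, with 1829.6 to 2079 CPM at P1 and 321 to 337 CPM at P6.

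The 3 ALDH1A genes encode the enzymes of the last, irreversible step of retinoic acid synthesis, and each was lower in GFP+ than in GFP- cells at P1. *Aldh1a1* (ENSMUSG00000053279, chromosome 19, 20676451 to 20717952, plus strand) rose with age in both fractions, and more in GFP+ cells. Its levels were 3.77 and 2.53 CPM in P1 GFP+, 34.9 and 28.1 CPM in P1 GFP-, 41.3 and 54.5 CPM in P6 GFP+, and 89.7 and 88.2 CPM in P6 GFP- libraries. No 2 of the 4 groups overlapped, and the order from low to high was P1 GFP+, P1 GFP-, P6 GFP+ and P6 GFP-. The log2 fold change with age was 3.99 in GFP+ cells (SE 0.28, p-adj = 0.00273 by edgeR), where mesenchymal, Schwann cell, melanocyte and macrophage markers were higher at P6 too, and 1.69 in GFP- cells (SE 0.14, p-adj = 0.000779 by edgeR). GFP+ against GFP- cells gave -3.18 at P1 (SE 0.25, p-adj = 0.000166 by edgeR) and -0.90 at P6 (SE 0.18, p-adj = 0.0150 by edgeR). The change of that ratio, 2.27 on the log2 scale, passed the interaction test (SE 0.30, p-adj = 0.00547 by edgeR). The P6 difference of *Aldh1a1* no longer passed when either P6 GFP- library was left out (-0.83, p-adj = 0.120 without replicate 1, and -0.93, p-adj = 0.0979 without replicate 2, by edgeR with the lone library assumed to vary like the other group).

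*Aldh1a2* (ENSMUSG00000013584, chromosome 9, 71063596 to 71144050, plus strand), the synthetic enzyme best known from embryonic mesoderm, was highest in P1 GFP- cells. It measured 3.03 and 2.09 CPM in P1 GFP+ against 102 and 75.3 CPM in P1 GFP- libraries, a log2 fold change of -4.96 (SE 0.25, p-adj = 3.62e-05 by edgeR). At P6 the GFP- libraries agreed closely at 23.1 and 22.7 CPM, whereas the GFP+ libraries held 1.29 and 12.9 CPM. In GFP- cells it fell by 1.76 on the log2 scale between P1 and P6 (SE 0.16, p-adj = 0.00112 by edgeR). That call was lost with all 8 libraries in the fit (-1.73, p-adj = 0.129 by edgeR). The P6 difference between fractions, -1.67, did not pass (SE 0.84, p-adj = 0.182 by edgeR), and it rested on which GFP+ library was used. It was -4.12 without P6 GFP+ replicate 2 and -0.80 without replicate 1, in fits that cannot hold the spread between the GFP+ libraries. The change with age in GFP+ cells, 1.55 (SE 0.96, p-adj = 0.286 by edgeR), likewise turned to -0.89 without P6 GFP+ replicate 2 and rose to 2.35 without replicate 1. The level of *Aldh1a2* was 9.98-fold higher in P6 GFP+ replicate 2 than in replicate 1. Markers of mesenchyme, endothelium, stria and other tissues were higher in that library too, and their part in the *Aldh1a2* level was not tested.

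*Aldh1a3* (ENSMUSG00000015134, chromosome 7, 73535778 to 73572403, minus strand) had levels of 3.49 and 3.33 CPM in P1 GFP+ and 10.2 and 9.88 CPM in P6 GFP+ libraries, so it rose in GFP+ cells with little spread between replicates (log2 fold change 1.65, SE 0.22, p-adj = 0.0108 by edgeR). The GFP- libraries were more spread, at 25.1 and 77.0 CPM for P1 and 23.2 and 16.9 CPM for P6. All GFP- libraries were above all GFP+ libraries, and P1 GFP- replicate 2, with its higher neuronal markers, was the highest. GFP+ against GFP- cells gave -3.79 at P1 (SE 0.55, p-adj = 0.00208 by edgeR) and -1.004 at P6 (SE 0.23, p-adj = 0.0244 by edgeR), and the change of the ratio was 2.78 (SE 0.65, p-adj = 0.0467 by edgeR). In GFP- cells the change with age was -1.15 and did not pass (SE 0.46, p-adj = 0.131 by edgeR). Several of these calls hung on single libraries. The P1 value was -2.78 without P1 GFP- replicate 2 and -4.41 without replicate 1, and the GFP- change with age was -1.76 without P1 GFP- replicate 1. The P6 difference was -0.69 without P6 GFP- replicate 1 and -1.23 without replicate 2 (p-adj = 0.292 and 0.0751 by edgeR), and with all 8 libraries in the fit it was -1.04 and did not pass (p-adj = 0.101 by edgeR). The rise in GFP+ cells lost its call without either P1 GFP+ library (p-adj = 0.0628 and 0.132 by edgeR). The change of the ratio was no longer past the threshold without either P1 GFP+ library (2.83 and 2.75, p-adj = 0.169 and 0.164 by edgeR) or either P6 GFP- library (3.06 and 2.53, p-adj = 0.132 and 0.194 by edgeR), and was 1.84 without P1 GFP- replicate 2 and 3.40 without replicate 1.

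To compare the 3 synthetic genes with each other, levels were divided by the length of the union of exons (2053 bases for *Aldh1a1*, 2264 for *Aldh1a2* and 4615 for *Aldh1a3*), giving RPKM, and each was expressed as a share of the sum of the 3. The sum was 3.41 ± 0.75 RPKM in P1 GFP+ cells (SD, n = 2, as for all values in this form), 65.5 ± 2.7 in P1 GFP-, 28.6 ± 8.1 in P6 GFP+ and 57.8 ± 1.6 in P6 GFP- cells. *Aldh1a2* held the largest share in P1 GFP- cells, 59.5% ± 10.2, and *Aldh1a1* the largest at P6, 82.5% ± 7.5 in GFP+ and 75.0% ± 1.2 in GFP- cells. In P1 GFP+ cells the low sum was split into 44.8% ± 2.8 *Aldh1a1*, 33.1% ± 1.4 *Aldh1a2* and 22.2% ± 4.2 *Aldh1a3*. With the length of the longest transcript in place of the union of exons, *Aldh1a3* (10.4%) moved ahead of *Aldh1a2* (9.33%) in P6 GFP+ cells. Per length, *Cyp26b1* RNA was 101 and 157 times the summed RNA of the 3 synthetic genes in the P1 GFP+ libraries and 3.05 and 2.13 times in the P6 GFP+ libraries. In the GFP- libraries the same ratio was 0.0708 and 0.174 at P1, and 0.127 and 0.0767 at P6. Transcripts of the degrading enzyme thus exceeded those of the synthetic enzymes in all 4 GFP+ libraries and were fewer in all 4 GFP- libraries. These are ratios of RNA and not of enzyme activity.

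**Figure D2:**
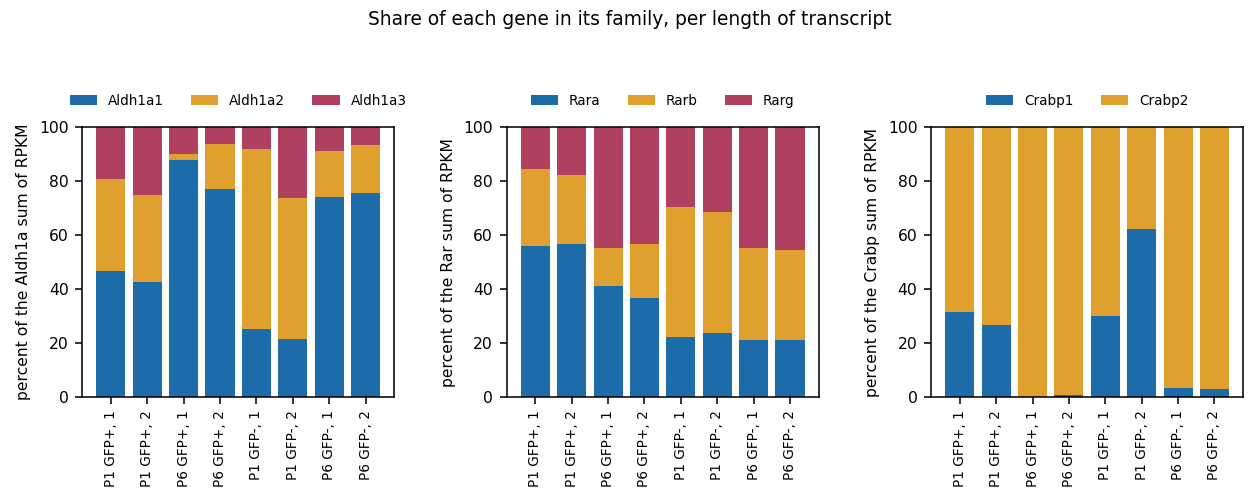
Share (y axis, percent of the sum of RPKM) of each gene in the ALDH1A, RAR and CRABP families for each library (x axis, group and replicate number). *Aldh1a1* makes up most of the ALDH1A sum at P6 in both fractions, *Rara* most of the RAR sum in P1 GFP+ cells, and *Crabp1* almost nothing of the CRABP sum at P6.

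The cellular retinoic acid binding proteins carry the hormone within the cell, with CRABP2 known for delivery to the receptors in the nucleus. *Crabp1* (ENSMUSG00000032291, chromosome 9, 54612555 to 54620917, plus strand) was present at P1 and close to undetected at P6. Its levels were 5.74 and 3.98 CPM in P1 GFP+ and 10.9 and 45.5 CPM in P1 GFP- libraries. At P6 it had 0 counts and 1 count in the GFP+ libraries, and 20 and 14 counts in the GFP- libraries (0.324 and 0.207 CPM). The 0 counts in P6 GFP+ replicate 1 allow a level of up to 0.169 CPM (3 counts, for counting error only). In pooled counts the P1 GFP+ level was 244 times the P6 GFP+ level (95% exact interval 43.5 to 9658, for counting error only, 362 counts against 1), and the fall with age passed the test in GFP+ cells (p-adj = 0.00407 by edgeR). In GFP- cells it fell by 6.54 on the log2 scale (SE 0.78, p-adj = 0.00254 by edgeR), a value that was -5.18 without P1 GFP- replicate 2 and -7.24 without replicate 1. At P1 GFP+ against GFP- cells gave -2.41 (SE 0.66, p-adj = 0.0235 by edgeR). That call was lost without P1 GFP+ replicate 1 (-2.74, p-adj = 0.0714 by edgeR) or replicate 2 (-2.16, p-adj = 0.112 by edgeR), and the value was -1.04 without P1 GFP- replicate 2 and -3.11 without replicate 1. At P6 *Crabp1* was under the filter on low counts and was not tested. The pooled P6 GFP- level was 12.5 times the P6 GFP+ level (95% exact interval 2.1 to 509, for counting error only).

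*Crabp2* (ENSMUSG00000004885, chromosome 3, 87752588 to 87757298, plus strand) had tighter replicates and fell with age in both fractions. It measured 20.5 and 17.8 CPM in P1 GFP+, 41.5 and 45.6 CPM in P1 GFP-, 5.85 and 7.60 CPM in P6 GFP+, and 15.2 and 10.9 CPM in P6 GFP- libraries. The 4 groups did not overlap, and at each age the GFP- libraries were the higher ones. The fall was 1.42 on the log2 scale in GFP+ cells (log2 fold change -1.42, SE 0.21, p-adj = 0.0139 by edgeR) and 1.54 in GFP- cells (log2 fold change -1.54, SE 0.19, p-adj = 0.00284 by edgeR). GFP+ against GFP- cells gave -1.07 at P1 (SE 0.13, p-adj = 0.000912 by edgeR) and -0.96 at P6 (SE 0.28, p-adj = 0.0444 by edgeR). The P6 call was lost without P6 GFP- replicate 1 (-0.65, p-adj = 0.403 by edgeR) or replicate 2 (-1.20, p-adj = 0.120 by edgeR) and narrowly with library totals (-0.95, p-adj = 0.050008 by edgeR), and the fall in GFP+ cells lost its call without P1 GFP+ replicate 1 (p-adj = 0.0959 by edgeR) or replicate 2 (p-adj = 0.0855 by edgeR). Per length (802 bases for *Crabp1*, 1322 for *Crabp2*), *Crabp2* made up 70.8% ± 3.3 of the CRABP sum in P1 GFP+ cells, 53.8% ± 22.6 in P1 GFP-, 99.6% ± 0.5 in P6 GFP+ and 96.8% ± 0.3 in P6 GFP- cells.

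The 3 receptors are ligand-activated transcription factors, and they did not behave alike. *Rara* (ENSMUSG00000037992, chromosome 11, 98789132 to 98836256, plus strand), the most widely expressed of them, varied least, with 49.0 and 51.7 CPM in P1 GFP+, 60.9 and 62.8 CPM in P1 GFP-, 42.0 and 44.0 CPM in P6 GFP+, and 46.1 and 48.2 CPM in P6 GFP- libraries. Its groups did not overlap, but its log2 fold changes were small and did not pass the test. They were -0.19 (SE 0.08, p-adj = 0.0923 by edgeR) at P1 and -0.14 (SE 0.14, p-adj = 0.491 by edgeR) at P6 for GFP+ against GFP- cells, and -0.14 (SE 0.12, p-adj = 0.427 by edgeR) in GFP+ and -0.20 (SE 0.10, p-adj = 0.215 by edgeR) in GFP- cells for P6 against P1. With scaling by library totals in place of TMM, which shifted the median of all genes by -0.10 at P1 and by -0.19 between the ages in GFP- cells, *Rara* passed at P1 (-0.30, p-adj = 0.0297 by edgeR) and with age in GFP- cells (-0.39, p-adj = 0.0361 by edgeR). It also passed at P1 without P1 GFP- replicate 1 (-0.24, p-adj = 0.0444 by edgeR).

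*Rarb* (ENSMUSG00000017491, chromosome 14, 17263356 to 17651381, minus strand), the receptor gene with the repeat shown above, was lower in GFP+ cells at both ages. It measured 17.9 and 16.8 CPM in P1 GFP+ against 94.5 and 86.2 CPM in P1 GFP- libraries, and 10.2 and 17.2 CPM in P6 GFP+ against 53.9 and 55.2 CPM in P6 GFP- libraries. Every GFP- library lay above every GFP+ library, and the GFP+ groups of the 2 ages overlapped. The log2 fold change was -2.27 at P1 (SE 0.11, p-adj = 3.03e-05 by edgeR) and -1.997 at P6 (SE 0.26, p-adj = 0.00507 by edgeR), and the test of the change of the ratio did not pass (0.27, SE 0.29, p-adj = 0.654 by edgeR). With age it fell by 0.54 on the log2 scale in GFP- cells (SE 0.11, p-adj = 0.0158 by edgeR), a call lost without P6 GFP- replicate 1 (-0.54, p-adj = 0.0941 by edgeR) or replicate 2 (-0.51, p-adj = 0.0885 by edgeR) and with all 8 libraries in the fit (-0.51, p-adj = 0.136 by edgeR). In GFP+ cells the change was -0.25 (SE 0.27, p-adj = 0.525 by edgeR). It was -0.65 without P6 GFP+ replicate 2, the library with more mesenchymal, endothelial and stria markers, and 0.046 without replicate 1.

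*Rarg* (ENSMUSG00000001288, chromosome 15, 102065369 to 102087948, minus strand), known from skin and cartilage, rose with age in both fractions. Its levels were 12.2 and 14.5 CPM in P1 GFP+, 72.0 and 74.8 CPM in P1 GFP-, 40.8 and 46.7 CPM in P6 GFP+, and 88.0 and 93.7 CPM in P6 GFP- libraries. No groups overlapped. It rose by 1.81 on the log2 scale in GFP+ cells (SE 0.16, p-adj = 0.00398 by edgeR) and by 0.50 in GFP- cells (SE 0.10, p-adj = 0.0157 by edgeR). GFP+ against GFP- cells gave -2.36 at P1 (SE 0.11, p-adj = 2.76e-05 by edgeR) and -1.06 at P6 (SE 0.15, p-adj = 0.00615 by edgeR), and the ratio changed by 1.29 (SE 0.17, p-adj = 0.00586 by edgeR). The P6 call was lost without P6 GFP- replicate 1 (-1.05, p-adj = 0.0537 by edgeR) or replicate 2 (-1.03, p-adj = 0.0639 by edgeR), as was the rise in GFP- cells (p-adj = 0.0829 and 0.0759 by edgeR), which also failed with library totals (0.31, p-adj = 0.0633 by edgeR). The change of the ratio was 1.18 without P1 GFP+ replicate 1 (p-adj = 0.0536 by edgeR). Cartilage and bone markers, among them genes of tissue in which *Rarg* is known to be expressed, were higher in both GFP- than in both GFP+ libraries for 5 of 6 genes at P1 and 6 of 6 at P6. They summed to 4697 to 7999 CPM in GFP+ and 15059 to 35339.9 CPM in GFP- libraries, nearly all of it from the cartilage collagen gene *Col2a1*. The other 5 markers, set apart after their values were seen, summed to 4.41 and 4.26 CPM in P1 GFP+ and 40.5 and 153 CPM in P6 GFP+ libraries. In GFP- libraries they summed to 46.1 and 44.9 CPM at P1 and 1004 and 1019.9 CPM at P6. Their sum was thus higher at P6 in both fractions, as *Rarg* was, but not every marker was. The bone gene *Ibsp* held 778 and 762 CPM of the P6 GFP- sums. The cartilage gene *Matn1* went the other way in GFP- cells, from 14.1 and 19.7 CPM at P1 to 5.72 and 5.38 CPM at P6. Their part in the *Rarg* levels was not tested.

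Per length (4573 bases for *Rara*, 3293 for *Rarb* and 4109 for *Rarg*), the summed receptor RNA was 19.5 ± 0.6 RPKM in P1 GFP+, 58.8 ± 1.0 in P1 GFP-, 24.2 ± 2.8 in P6 GFP+ and 49.0 ± 1.6 in P6 GFP- cells. The leading receptor differed between the groups. *Rara* made up 56.4% ± 0.5 of the sum in P1 GFP+ cells, *Rarb* 46.6% ± 2.2 in P1 GFP- cells, and *Rarg* 44.1% ± 0.9 in P6 GFP+ and 45.1% ± 0.5 in P6 GFP- cells. In P6 GFP+ cells *Rara* followed with 39.0% ± 3.3, so between P1 and P6 the *Rarg* share went up from 16.6% ± 1.5 in GFP+ cells, while the *Rara* share went down from 56.4% ± 0.5 and the *Rarb* share from 27.0% ± 2.0 to 16.9% ± 4.2. Shares were not tested, and the levels of *Rara* and *Rarb* in GFP+ cells did not pass the test with age.

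Counted over the set, GFP+ against GFP- cells at P1 gave 8 of 9 genes past the test at an adjusted p below 0.05, 1 higher (*Cyp26b1*) and 7 lower in GFP+ cells. Of all 18682 genes tested in that comparison 53.6% passed, 25.5% higher and 28.1% lower, so passing was common. The median log2 fold change was -2.36 over the 9 genes and 0.01 over all genes. Under the criteria of the study (p and adjusted p below 0.01 and a fold change above 4), 1 was higher and 5 were lower, where 6.46% and 11.4% of all genes were (17.8% together). Only these cut-offs were taken from the study and put on the edgeR fit. The study also asked for a pass in both DESeq and Cufflinks, and for a minimum expression level in its filtered lists, and neither was applied here. At P6, 6 of the 8 genes tested passed, 1 higher and 5 lower, against 33.5% of all 18294 genes tested (15.5% higher and 17.9% lower), with a median log2 fold change of -0.98 over the 8 and -0.02 over all. Only *Cyp26b1* met the study's criteria at P6 (7.98% of all genes did, 4.88% higher and 3.1% lower), with *Rarb* just under them at a fold change of 3.99. Leaving out either P6 GFP- library lowered the number of the 8 past the test, with *Cyp26b1* and *Rarb* still past it. The number over all genes fell too.

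For P6 against P1, 6 of 9 genes passed in GFP+ cells, where 20.4% of all 17213 genes did (12.1% higher and 8.31% lower). *Aldh1a1*, *Aldh1a3* and *Rarg* were higher and *Cyp26b1*, *Crabp1* and *Crabp2* lower at P6. In GFP- cells 6 of 9 passed as well, where 19.1% of all 18920 genes did (11.3% higher and 7.87% lower), with *Aldh1a1* and *Rarg* higher and *Aldh1a2*, *Crabp1*, *Crabp2* and *Rarb* lower. The comparisons share libraries and are not independent of each other. The interaction test passed for 3 of 9 genes, *Aldh1a1*, *Aldh1a3* and *Rarg*, where 6.38% of all 19233 genes passed, 3.6% with a higher and 2.79% with a lower ratio at P6. All 3 were further below the GFP- level at P1 than at P6. The count fell without P1 GFP+ replicate 1 and grew without P6 GFP+ replicate 1, and the count over all genes moved the same way. Without P6 GFP+ replicate 1 the change of the ratio was -2.28 for *Cyp26b1* and 4.08 for *Aldh1a2*.

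**Figure D3:**
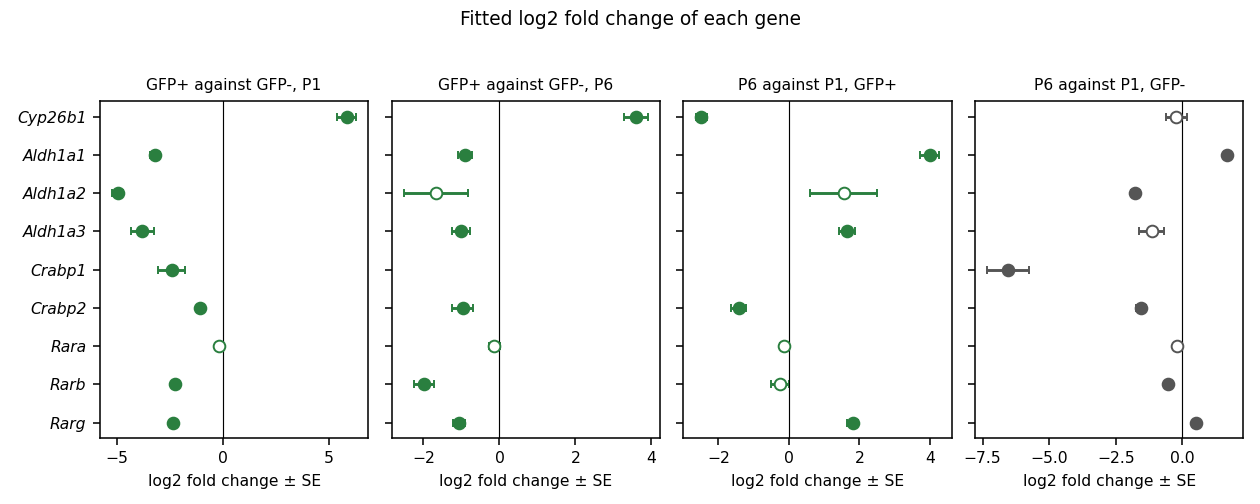
Log2 fold change (x axes, each with its own range) with its standard error (bars) for the 9 genes (y axis) in 4 comparisons of 2 against 2 libraries, fitted with edgeR. Filled points passed at an adjusted p below 0.05 and open points did not, and *Crabp1* is left out where P6 GFP+ cells enter, since they held 1 count. *Cyp26b1* is the only point right of 0 for GFP+ against GFP- cells, at 5.84 and 3.58.

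The plot of replicate differences sets the spread of the 9 genes beside that of the marker lists. In P6 GFP+ cells, replicate 2 was 9.98-fold higher than replicate 1 in *Aldh1a2* and 1.69-fold higher in *Rarb*, while the other 6 genes with counts in both libraries differed by 0.964-fold to 1.32-fold. In the same pair the median ratio was 3.52 over otic mesenchyme and fibrocyte markers, 4.15 over endothelial markers and 0.786 over supporting cell markers. In P1 GFP- cells, replicate 2 was 4.18-fold higher in *Crabp1*, 3.07-fold in *Aldh1a3* and 2.32-fold in *Cyp26b1*, and the other 6 genes differed by 0.740-fold to 1.10-fold. In that pair the median ratio was 3.27 over the neuronal, 2.91 over the stria marginal cell and 1.76 over the supporting cell markers.

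**Figure D4:**
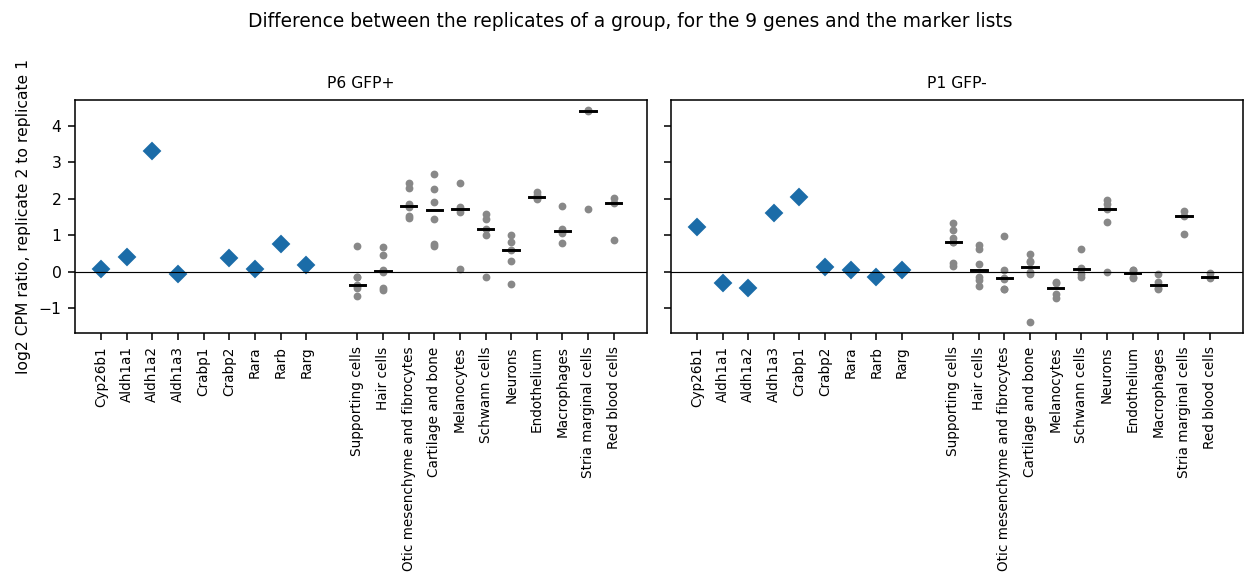
Log2 ratio of replicate 2 to replicate 1 in CPM (y axis) in P6 GFP+ and in P1 GFP- cells, for the 9 genes (diamonds) and for each gene of 11 marker lists (points, with a line at the median of the list); *Crabp1* has no value at P6. *Aldh1a2* stands highest of the 9 in P6 GFP+ cells, where most lists of non-sensory tissue are above 0, and *Crabp1*, *Aldh1a3* and *Cyp26b1* stand highest in P1 GFP- cells.

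The other genes of the pathway were taken from lists of textbook members. Of the retinol uptake, binding and storage list (12 genes), 11 were tested at P1, with 3 higher and 2 lower in GFP+ cells. That is 45.5% of those tested, against 53.6% of all genes. At P6 50% of those tested passed between the fractions, against 33.5% of all genes. With age 27.3% passed in GFP+ and 30% in GFP- cells, against 20.4% and 19.1% of all genes. *Stra6*, the cell surface receptor for retinol-binding protein, was among the higher ones at P1, with 26.6 CPM in both GFP+ libraries against 10.7 and 13.3 CPM in the GFP- libraries (log2 fold change 1.25, SE 0.15, p-adj = 0.000879 by edgeR). It fell by 1.41 on the log2 scale in GFP+ cells by P6 (SE 0.19, p-adj = 0.0103 by edgeR), a call lost without P1 GFP+ replicate 2 (-1.44, p-adj = 0.0829 by edgeR), and with age in GFP+ cells 2 of the 11 tested were higher and 1 lower. *Rbp7*, a cellular retinol-binding protein, stood out in P6 GFP+ cells at 49.5 and 23.3 CPM, with 1.18 and 2.21 CPM in P1 GFP+ and at most 0.343 CPM in any GFP- library. Its log2 fold change was 6.90 for GFP+ against GFP- cells at P6 (SE 0.51, p-adj = 0.00109 by edgeR) and 4.57 for P6 against P1 in GFP+ cells (SE 0.53, p-adj = 0.00749 by edgeR). Without P6 GFP+ replicate 1, the higher library, these were 6.29 and 3.93. *Lpl*, a lipase that helps cells take up retinyl esters, was lower in GFP+ cells at P1 (-3.92, SE 0.34, p-adj = 0.000269 by edgeR) and at P6 (-2.56, SE 0.43, p-adj = 0.00945 by edgeR). The P6 value of *Lpl* was -3.35 without P6 GFP+ replicate 2, and its call was lost without P6 GFP- replicate 2 (p-adj = 0.0558 by edgeR). At P6, 2 of 10 genes of the list tested were higher and 3 lower, among them *Rbp4*, the carrier of retinol in blood (-1.66, SE 0.40, p-adj = 0.0272 by edgeR, lost without P6 GFP- replicate 1 or 2 at p-adj = 0.171 and 0.151). In GFP- cells with age 2 of 10 were higher, *Rbp4* (1.51, p-adj = 0.0242 by edgeR) and *Lpl* (1.05, p-adj = 0.0214 by edgeR), and 1 was lower, the thyroid hormone and retinol carrier *Ttr* (-1.20, p-adj = 0.0315 by edgeR). All 3 of these calls were lost without P6 GFP- replicate 1 (p-adj = 0.142, 0.142 and 0.210 by edgeR) and without replicate 2 (p-adj = 0.101, 0.105 and 0.0671 by edgeR).

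Of the 15 genes of the retinol and retinal oxidoreductase list, 11 were tested at P1, with 3 higher and 3 lower in GFP+ cells, and at P6 2 were higher and 1 lower. That is 54.5% and 27.3% of those tested, against 53.6% and 33.5% of all genes. With age 45.5% of those tested passed in GFP+ and 18.2% in GFP- cells, against 20.4% and 19.1% of all genes. *Rdh12*, which reduces retinaldehyde back to retinol, was higher in GFP+ cells, at 5.48 and 5.54 against 1.48 and 1.66 CPM at P1 and at 14.9 and 9.68 against 1.35 and 1.21 CPM at P6. Its log2 fold change was 1.91 at P1 (SE 0.22, p-adj = 0.000843 by edgeR) and 3.25 at P6 (SE 0.34, p-adj = 0.00263 by edgeR). *Dhrs4* was higher in GFP+ cells too (0.79, SE 0.10, p-adj = 0.00135 at P1, and 0.93, SE 0.20, p-adj = 0.0205 at P6 by edgeR), the P6 call being lost without P6 GFP- replicate 1 or 2 (p-adj = 0.118 and 0.160 by edgeR). *Dhrs3*, a retinaldehyde reductase whose gene is known to respond to retinoic acid, went the other way, with 3.21 and 2.01 CPM in P1 GFP+ against 21.0 and 21.8 CPM in P1 GFP- libraries and 6.30 and 10.4 against 29.0 and 26.3 CPM at P6. Its log2 fold change was -2.90 at P1 (SE 0.25, p-adj = 0.000265 by edgeR) and -1.73 at P6 (SE 0.27, p-adj = 0.00789 by edgeR), with p-adj = 0.0507 at P6 without P6 GFP- replicate 1. With age 4 of 11 were higher and 1 lower in GFP+ cells, the higher ones including *Dhrs3* (1.75, p-adj = 0.0343 by edgeR), *Rdh12* (1.25, p-adj = 0.0398 by edgeR) and *Rdh14* (0.77, p-adj = 0.0432 by edgeR), and each of these lost its call without P1 GFP+ replicate 2 (p-adj = 0.217, 0.245 and 0.294 by edgeR). Without P1 GFP+ replicate 1 *Rdh12* and *Rdh14* did so too (p-adj = 0.162 and 0.341 by edgeR), and *Rdh14* also under scaling by library totals (p-adj = 0.0552 by edgeR). In GFP- cells 1 was higher, *Dhrs3* (0.56, p-adj = 0.02999 by edgeR, lost without either P6 GFP- library at 0.216 and 0.0751), and 1 was lower. The other CYP26 genes, *Cyp26a1* and *Cyp26c1*, stood at no more than 0.475 CPM in any library, so *Cyp26b1* was the degrading gene of its family that these libraries held.

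Of the 11 receptor partners and cofactors, all tested, 1 was higher and 4 lower in GFP+ cells at P1, and 1 higher and 3 lower at P6. These are 45.5% and 36.4% of the list, near the 53.6% and 33.5% of all genes that passed. *Rxra*, the main heterodimer partner of the RARs, was lower in GFP+ cells, at 55.5 and 60.7 against 139 and 126 CPM at P1 and 35.2 and 56.7 against 107 and 99.6 CPM at P6. Its log2 fold change was -1.09 at P1 (SE 0.09, p-adj = 0.000257 by edgeR) and -1.17 at P6 (SE 0.24, p-adj = 0.0169 by edgeR), the latter lost without P6 GFP- replicate 1 or 2 (p-adj = 0.0908 and 0.0734 by edgeR). The coactivators *Ncoa1* and *Ncoa3* went apart at P1, at 1.34 (SE 0.11, p-adj = 0.000211 by edgeR) and -1.28 (SE 0.11, p-adj = 0.000234 by edgeR). At P6 *Ncoa3* was lower too (-1.38, SE 0.38, p-adj = 0.0403 by edgeR), with -2.10 without P6 GFP+ replicate 2 and no call without P6 GFP- replicate 1 or 2 (p-adj = 0.0980 and 0.145 by edgeR) or with library totals (p-adj = 0.0539 by edgeR). *Fabp5* and *Ppard*, a fatty acid binding protein and a nuclear receptor that can also receive retinoic acid, changed in opposite directions with age in GFP+ cells, at -1.09 (SE 0.21, p-adj = 0.0259 by edgeR) and 0.86 (SE 0.12, p-adj = 0.0115 by edgeR). Both calls were lost without P1 GFP+ replicate 1 (p-adj = 0.284 and 0.0980 by edgeR) or replicate 2 (p-adj = 0.158 and 0.175 by edgeR). *Fabp5* was also lower in GFP+ cells at P6 (-1.29, SE 0.21, p-adj = 0.00900 by edgeR), lost without P6 GFP- replicate 1 or 2 (p-adj = 0.0776 and 0.104 by edgeR). In GFP- cells 0 of the 11 passed with age by edgeR, where 19.1% of all genes did, and 0 by DESeq2. By edgeR 2 were at an unadjusted p below 0.05.

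Of the 12 known targets outside the set, 8 were tested at P1, and 7 of them were lower in GFP+ cells (28.1% of all genes were), with a median log2 fold change of -2.87 against 0.01 over all genes. At P6, 5 of 8 were lower and 1 was higher (17.9% and 15.5% of all genes). *Tgm2*, the tissue transglutaminase long used as a readout of retinoic acid, measured 1.16 and 1.49 CPM in P1 GFP+ against 30.7 and 32.5 CPM in P1 GFP- libraries (-4.50, SE 0.17, p-adj = 1.77e-05 by edgeR). At P6 it measured 5.52 and 14.4 against 70.2 and 64.0 CPM (-2.75, SE 0.43, p-adj = 0.00779 by edgeR, and -3.58 without P6 GFP+ replicate 2). *Rarres1* and *Rarres2*, named for their response to retinoids, were lower as well, at -3.65 (SE 0.50, p-adj = 0.00157 by edgeR) and -3.11 (SE 0.36, p-adj = 0.000826 by edgeR) at P1, and -2.91 (SE 0.69, p-adj = 0.0262 by edgeR) and -2.37 (SE 0.37, p-adj = 0.00778 by edgeR) at P6. The P6 value of *Rarres1* ranged from -2.07 without P6 GFP- replicate 1, where it did not pass (p-adj = 0.0991 by edgeR), to -4.17 without P6 GFP+ replicate 2, and it was -2.25 without P6 GFP+ replicate 1. That of *Rarres2* did not pass without P6 GFP- replicate 2 (p-adj = 0.0590 by edgeR). With age in GFP+ cells 4 of 7 tested were higher (12.1% of all genes were) and 0 lower, among them *Bhlhe40*, a transcription factor that also answers many other signals, which went from 6.52 and 6.23 to 111 and 93.8 CPM (4.09, SE 0.17, p-adj = 0.00176 by edgeR). The receptor tyrosine kinase gene *Ret* went from 1.94 and 1.57 to 15.6 and 12.4 CPM (3.07, SE 0.28, p-adj = 0.00415 by edgeR), and *Rarres1* by 4.11 (SE 0.74, p-adj = 0.0220 by edgeR). The *Rarres1* value was 2.89 without P6 GFP+ replicate 2, 4.75 without P6 GFP+ replicate 1, and lost its call without P1 GFP+ replicate 2 (p-adj = 0.0709 by edgeR). In GFP- cells 3 of 8 were higher (11.3% of all genes were), *Rarres1* (3.42, SE 0.52, p-adj = 0.00612 by edgeR, and 2.57 without P6 GFP- replicate 1), *Bhlhe40* (1.97, SE 0.12, p-adj = 0.000243 by edgeR) and *Tgm2* (1.28, SE 0.12, p-adj = 0.00111 by edgeR). Several of these genes are also known from fibroblasts, cartilage or vessels. Mesenchyme and fibrocyte markers were higher in both GFP- than in both GFP+ libraries for 5 of 6 genes at P1 and 6 of 6 at P6, and endothelial markers for 4 of 4 at P1 and 0 of 4 at P6, and the part of those cells was not tested.

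**Figure D5:**
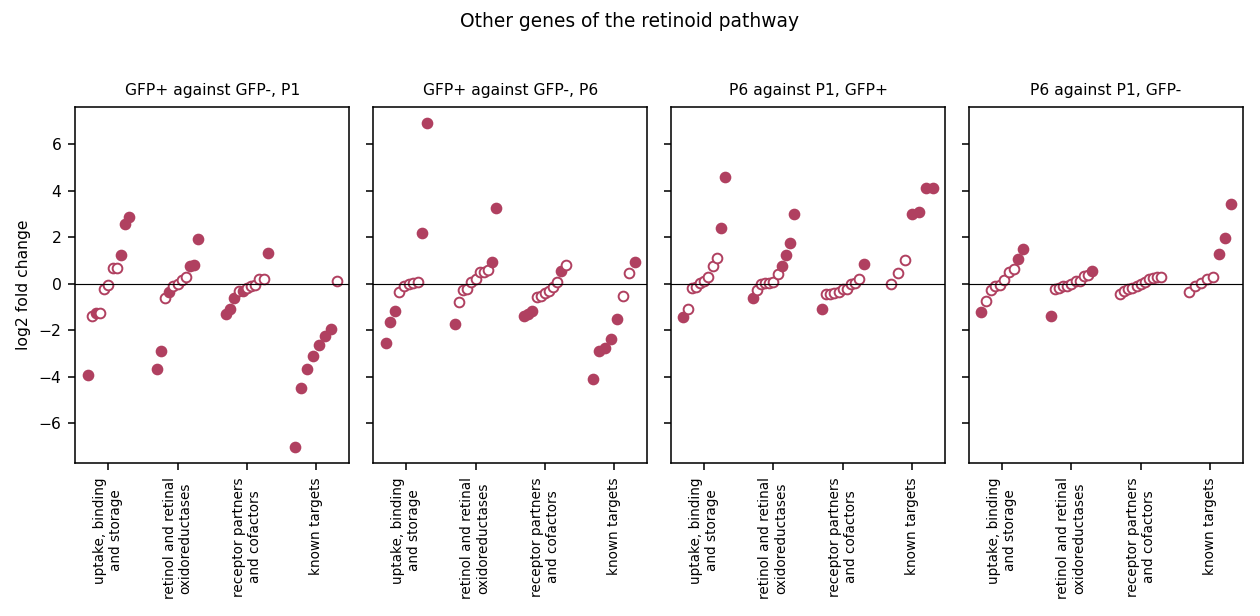
Log2 fold change (y axis) of each tested gene of 4 other lists of the retinoid pathway (x axis) in 4 comparisons, with filled points for genes that passed at an adjusted p below 0.05. For GFP+ against GFP- cells at P1, 7 of the 8 known targets are filled and below 0, whereas the highest point at P6, at 6.90, is *Rbp7* of the uptake, binding and storage list.

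Genes whose pattern over the 8 libraries was most like that of a member are given by Pearson's r of log2(CPM + 0.5) among 19232 genes, as a description, since the libraries share groups and a GFP+ to GFP- contrast. For *Cyp26b1* the closest were 3830406C13Rik (r = 0.997) and 9030224M15Rik (r = 0.997), for *Aldh1a1* *Chpt1* (r = 0.997) and *Mt1* (r = 0.995), for *Aldh1a2* *Nhsl2* (r = 0.997) and *Mme* (r = 0.991), and for *Aldh1a3* *Hs3st5* (r = 0.991) and *Atl1* (r = 0.985). *Crabp1* was closest to SNORD86 (r = 0.993) and *Zdhhc14* (r = 0.990), and *Crabp2* to the imprinted gene *Mest* (r = 0.992) and *Mettl2* (r = 0.991). SNORD86 was near the floor, with 1 to 34 counts per library and at most 0.539 CPM, close to the 0.5 added to CPM. A high r also does not mean changes of like size. 3830406C13Rik ranged only from 11.8 to 26.5 CPM, and *Cyp26b1* from 20.0 to 2079 CPM. Among the receptors, *Rara* was closest to *Celf3* (r = 0.992) and *Mbnl3* (r = 0.989), *Rarb* to the fibrillar collagen gene *Col5a1* (r = 0.998) and *Slc10a7* (r = 0.998), and *Rarg* to *Arsb* (r = 0.997) and *Spon2* (r = 0.996). *Col5a1* measured 76.8 and 74.2 CPM in P1 GFP+, 649 and 577 CPM in P1 GFP-, 33.3 and 80.2 CPM in P6 GFP+, and 331 and 334 CPM in P6 GFP- libraries, so it shared with *Rarb* the higher value in P6 GFP+ replicate 2.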

How the data were processed

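Libraries had been made from sorted cochlear cells and sequenced as paired ends. The authors aligned the reads to mm9 (NCBIM37) with TopHat 1.4.0, as the submitters' processing notes give it, and deposited raw counts per Ensembl gene, with no normalization. The counting mode and strand setting are not given in the sources used here. The 5 rows that name no gene (23.8% to 35.3% of each library) were left out. Symbols, positions and exon lengths came from the NCBIM37 annotation. The 9 genes, the other lists and the tests were chosen with earlier results of these data known.

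Each comparison was fitted on its 4 libraries, and the interaction on all 8, with edgeR 4.0.16 (R 4.3.3), using TMM, filterByExpr (minimum count 10, minimum total count 15), the quasi-likelihood test and Benjamini-Hochberg adjustment over all genes tested. The SE was taken from the fold change and F, as size over root F on the log2 scale. Other pathway genes were named when among the 3 with the largest change per list that passed with 100 or more normalized counts on average in the group where they were higher, except *Cyp26a1* and *Cyp26c1*, chosen after their values were seen, and 1 gene that is not reported here. As genes of like pattern, the 2 with the highest Pearson's r were named for each member. Replicates of a group differed by more than counting noise (chi-square per degree of freedom 16.3 to 62.7). DESeq2 1.42.0 was an alternative. The procedure was run on simulated data in which all genes had the same dispersion and the libraries were independent. Such data do not cover spread that differs between genes, or a library that stands apart from its replicate. Intervals are exact, at 95%. Figures were drawn with matplotlib 3.10.9.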

Additional observations from a re-analysis of the deposited data

Results flagged for a closer look

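The ratio of GFP+ to GFP- cells differed between the ages in an interaction test on the 8 libraries (edgeR, adjusted over all genes) for 3 of the 9 genes. Of all 19233 genes tested, 6.38% passed. The log2 ratio at P6 minus that at P1 was 2.27 for *Aldh1a1* (p-adj = 0.00547), 2.78 for *Aldh1a3* (p-adj = 0.0467) and 1.29 for *Rarg* (p-adj = 0.00586), each by edgeR. The value of *Aldh1a3* did not pass without either P1 GFP+ or either P6 GFP- library (2.53 to 3.06, p-adj = 0.132 to 0.194 by edgeR), and that of *Rarg* without P1 GFP+ replicate 1 (1.18, p-adj = 0.0536 by edgeR).

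Among the named genes of the other pathway lists, the same test passed for *Stra6* (-1.61, p-adj = 0.0132 by edgeR), *Rbp7* (4.003, p-adj = 0.0292 by edgeR), *Ret* (3.14, p-adj = 0.00226 by edgeR) and *Bhlhe40* (2.10, p-adj = 0.00191 by edgeR). These genes were named for passing in comparisons that enter this test, so their passes are no separate evidence. By list, 2 of 11 uptake, binding and storage genes tested and 2 of 8 known targets passed. So did 1 of 11 oxidoreductases and 0 of 11 receptor partners and cofactors, against 6.38% of all genes. *Stra6* did not pass without either P1 GFP+ or either P6 GFP- library (p-adj = 0.0521 to 0.0776 by edgeR). *Rbp7* did not pass without any one of the P1 libraries or of the P6 GFP- libraries (p-adj = 0.0532 to 0.118 by edgeR), nor with a replicate block (3.92, p-adj = 0.0587 by edgeR). *Ret* was lower in GFP+ than in GFP- cells at P1 (-2.24, p-adj = 0.000469 by edgeR) and higher at P6 (0.92, p-adj = 0.0316 by edgeR). Both P6 GFP+ libraries held more RNA of mesenchyme, Schwann cell, melanocyte and macrophage markers than both P1 GFP+ libraries, replicate 2 the most, and the part of this in the differences between the ages was not tested. No group had the 4 samples that a search for outlying libraries needs.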

How the results depend on the processing

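The alternatives were DESeq2's size factors, library totals, no filter on low counts, the DESeq2 test, all 8 libraries in a fit, a replicate block and leaving out each library, where a lone library was assumed to vary like the other group. Without leaving out libraries, 257 of 273 values of the 9 genes kept direction and call, 9 gained and 7 lost a call, and none reversed. The 273 also hold the values of a crossed replicate block for P6 against P1, a setting chosen after seeing the data. Leaving out a library kept 171 of 212, with 11 calls gained, 23 lost and 7 directions reversed. Reversed values were all for differences that had not passed. With age in GFP+ cells, *Rarb* ranged from -0.65 to 0.046 and *Aldh1a2* from -0.89 to 2.35, the ends of both being without P6 GFP+ replicate 1 or 2. With age in GFP- cells *Cyp26b1* ranged from -0.72 to 0.49, and was above 0 without P1 GFP- replicate 2 (0.49) and without P6 GFP- replicate 2 (0.15). For the change of the ratio, *Crabp2* ranged from -0.15 to 0.39, below 0 without P6 GFP+ replicate 2 (-0.08) or P6 GFP- replicate 2, and *Rarb* from -0.14 (without P6 GFP+ replicate 2) to 0.55. The number of the 9 genes past the test ranged over the left-out libraries from 7 to 9 at P1, from 2 to 7 at P6, from 4 to 7 with age in GFP+ cells, from 4 to 8 with age in GFP- cells, and from 1 to 5 for the change of the ratio, where it was 5 with no filter. The cause was not tested. Counts over all genes moved most. Over the settings that keep every library, genes past the study's criteria ranged from 1132 to 2528 at P6 (1459 in the fit reported), from 401 to 1387 with age in GFP+ cells (441), and from 280 to 661 with age in GFP- cells (350), and genes past the test for the change of the ratio from 750 to 3201 (1228). Over left-out libraries, genes past the test ranged from 6412 to 11647 at P1 (10022), from 1940 to 9806 at P6 (6122), from 680 to 9491 (3511) and from 1140 to 4867 (3619) with age in GFP+ and GFP- cells, and from 337 to 2991 for the change of the ratio. At P6, those past the study's criteria ranged from 0 by edgeR without P6 GFP- replicate 2, where 1940 still passed the test, to 3261 without P6 GFP+ replicate 2. Genes past the test with age also reached 5854 in GFP+ and 5444 in GFP- cells with no filter.

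With the length of the longest transcript in place of the union of exons, the leading shares were 41.7% (*Aldh1a1*, P1 GFP+), 73.1% (*Aldh1a1*, P6 GFP-), 59.2% (*Rara*, P1 GFP+), 40.8% (*Rarb*, P1 GFP-), 46.3% and 49.1% (*Rarg*, P6 GFP+ and GFP-), and 77.5% and 97.7% (*Crabp2*, P1 GFP+ and P6 GFP-), and each family had the same leading gene in every group as with the union of exons. TMM scaling moved levels by -8.27% to 7.64% and left the shares as they were.

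Whether libraries with the same replicate number came from the same cochleas is not given in the sources used here. The correlations across genes of replicate differences between groups ran from -0.321 to 0.0999. Between GFP+ and GFP- cells of the same age they were 0.0303 at P1 and 0.0621 at P6. Low correlations cannot show that the samples were not paired, and the fits reported did not pair them. With the replicate block the counts of the 9 genes past the test were 8 at P1, 5 at P6, 6 and 6 with age and 2 for the change of the ratio, with calls lost for *Crabp2* at P6 (p-adj = 0.0683 by edgeR) and for the ratio of *Aldh1a3* (p-adj = 0.0937 by edgeR), and 750 genes in all passed for the ratio. Of the other pathway genes named, *Rdh14* with age in GFP+ cells (p-adj = 0.0740 by edgeR), *Dhrs3* with age in GFP- cells (p-adj = 0.0696 by edgeR) and the ratio of *Rbp7* (p-adj = 0.0587 by edgeR) lost their calls with the block. A crossed block, chosen after seeing the data, gave 3645 genes past the test with age in GFP+ and 5481 in GFP- cells, and 6 and 7 of the 9. With 2 libraries in a group, small differences such as those of *Rara* are at the limit of what these fits can show.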
